A study of Mus musculus with 8 samples.

Results

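The genes described here are 8 members of the tumour necrosis factor (TNF) superfamily, chosen by name with earlier results of these data known. They are the receptors Tnfrsf25, Tnfrsf9, Tnfrsf4, Tnfrsf18, Tnfrsf1b and Cd27, and the ligands Tnfsf8 and Tnfsf11. All 8 were found by gene symbol among the 16735 genes listed in the count tables of both experiments, and all 8 passed the filter on low counts that left 14418 genes for testing. Expression was measured by bulk RNA-seq in 8 libraries of sorted follicular helper T (Tfh) cells, which provide help to germinal centre B cells. The mice were K/BxN mice, which develop spontaneous autoimmune arthritis, and all of them carried a Th17 fate-mapping reporter, so that ZsGreen, a fluorescent protein, marks cells with a history in the Th17 state. Tfh cells were sorted as CD4+, TCRβ+, CD25-, CXCR5+ and PD-1+ and divided into ZsGreen+ and ZsGreen- cells.

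The 4 groups were ZsGreen+ Tfh cells of Peyer's patch, ZsGreen- Tfh cells of Peyer's patch, ZsGreen+ Tfh cells of spleen and ZsGreen- Tfh cells of spleen, with 2 libraries each, 1 from each of 2 experiments. The question behind the sort is which genes mark the Tfh cells that came from Th17 cells. The labels do not name the allele that drives the reporter, the age or number of the mice, or whether animals were pooled. The p-values therefore measure the spread between these libraries, which may be technical. Where 2 values are given for a group below, the first is from experiment 1 and the second from experiment 2. Levels are CPM (counts relative to the library total) after TMM scaling of the library sizes, unless they are given per kilobase of exon.

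Signals of the TNF superfamily pass between cells that touch: most ligands are proteins of the cell surface, and the receptors cluster when bound and recruit TRAF adaptor proteins, which activate NF-κB, or, where they carry a death domain, proteins of the cell death machinery. On T cells several of these receptors give costimulation, the signal that adds to the antigen receptor. Their levels change with activation: Tnfrsf9, Tnfrsf4 and Tnfrsf18 are induced by it, whereas Cd27 is already present on naive T cells and is lost on long-stimulated effector cells.

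Total counts per library lay between 9950042 and 15318207. Cd4 had 673 to 1356 CPM, Cxcr5 105 to 802 CPM and Pdcd1, which encodes PD-1, 374 to 1578 CPM over the 8 libraries, so the transcripts of the sorted proteins were present in each. The Y-linked genes Ddx3y, Eif2s3y, Kdm5d and Uty summed to 0 counts in the spleen ZsGreen- library of experiment 1 and to between 179 and 1482 counts in the other 7 libraries. In experiment 1 they had 1094 counts in the spleen ZsGreen+ library. The Peyer's patch ZsGreen- and ZsGreen+ libraries of that experiment had 179 and 1010. Whether this difference between the sorts has a part in the sort comparisons was not tested. The experiments also differed for the members themselves. Within a group, the level in experiment 2 was 3.62 to 7.54 times that in experiment 1 for Tnfrsf4, 3.78 to 6.01 times for Tnfrsf18 and 2.4 to 2.62 times for Tnfrsf9. For Tnfrsf1b the same ratio was 0.389 to 0.714. The fit had a term for the experiment, so each comparison below is made within experiments. Without that term edgeR called 0 genes in each of the 5 comparisons, and 79 to 568 genes had an unadjusted p under 0.05.

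Per kilobase of exon, the abundance of the 8 genes in a library differed by group. In the 2 spleen ZsGreen- libraries Cd27 was the most abundant of the 8, with 90.3 and 229 CPM per kilobase, and it also led in both Peyer's patch ZsGreen- libraries, with 109 and 298 CPM per kilobase. In the 2 spleen ZsGreen+ libraries Cd27 ranked 7 of the 8, with 28.8 and 50.3 CPM per kilobase. Tnfrsf25 ranked 3 and 4 of the 8 in spleen ZsGreen+ cells, with 66.3 and 110 CPM per kilobase, and 8 and 7 in spleen ZsGreen- cells, with 17.4 and 22.7 CPM per kilobase. The ligands Tnfsf8 and Tnfsf11 ranked between 1 and 5 in each library, with 83.8 to 149 CPM per kilobase for Tnfsf8 and 57.9 to 149 CPM per kilobase for Tnfsf11. Tnfrsf9 ranked between 6 and 8 in each library, and Tnfrsf1b ranked 8 in the 4 libraries of experiment 2 and 4 to 7 in those of experiment 1.

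**Figure D1:**
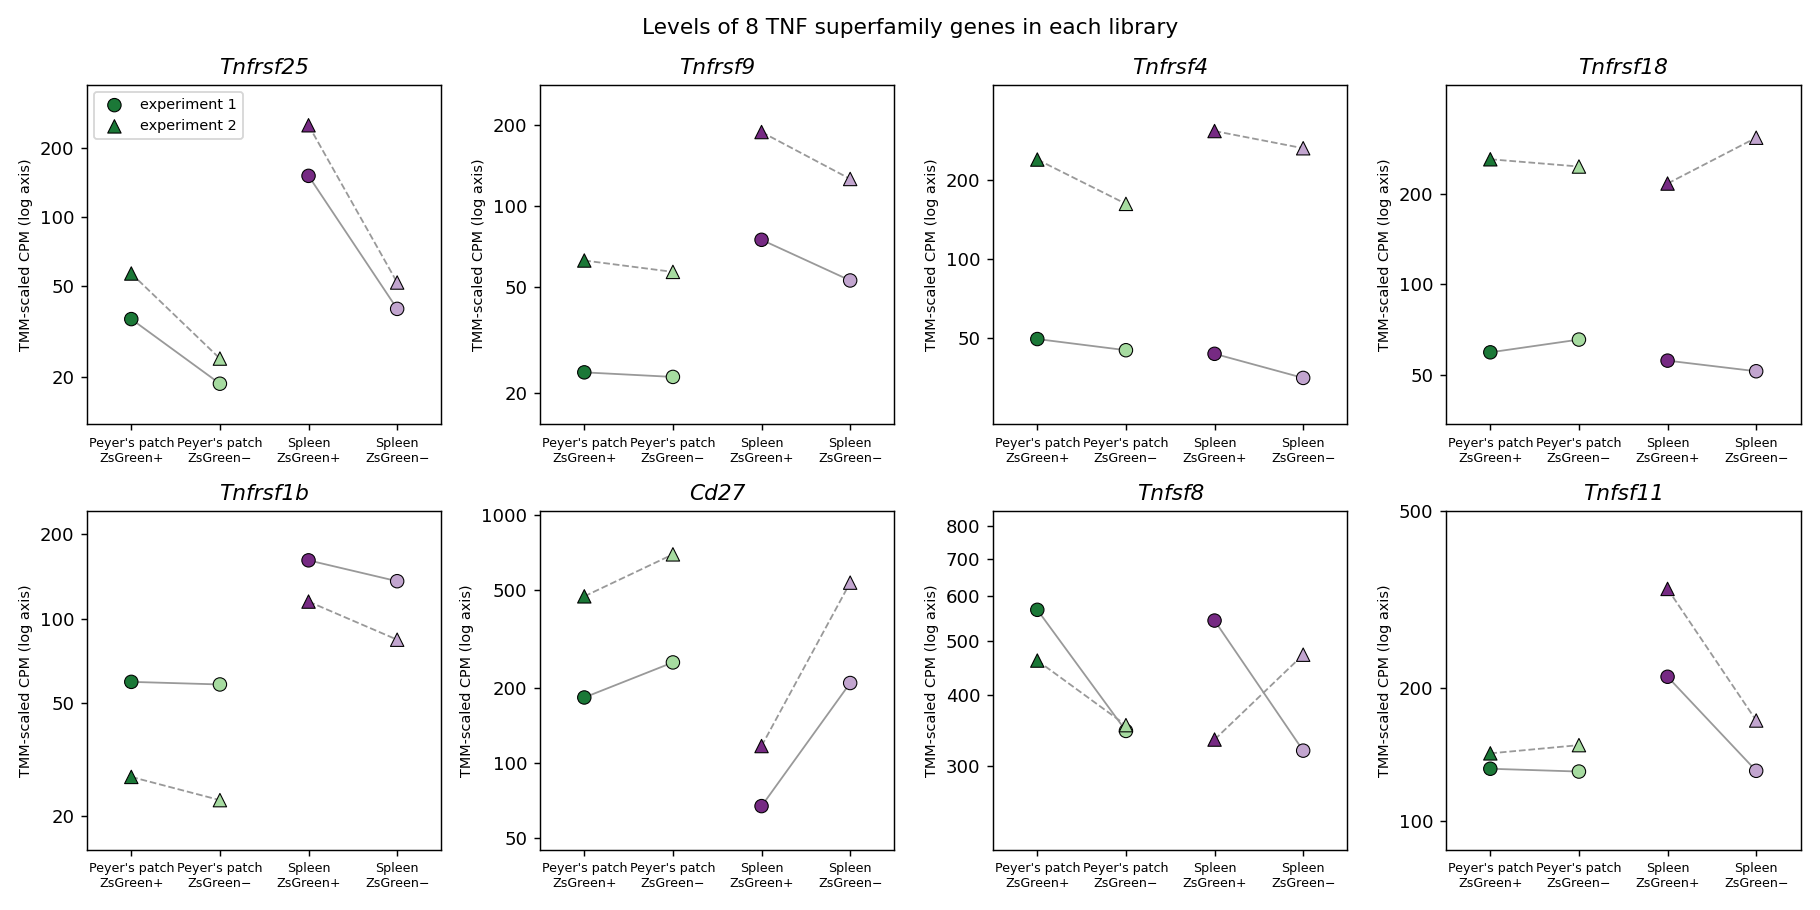
TMM-scaled CPM (log axis) of the 8 genes in each of the 8 libraries; circles are experiment 1, triangles experiment 2, and lines join the ZsGreen+ and ZsGreen- libraries of the same tissue and experiment. Tnfrsf25 lies between 151 and 251 CPM in spleen ZsGreen+ cells, above every other library, and Cd27 lies lowest there, at 67.0 and 117 CPM.

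Of the 8 genes, 6 lie on mouse chromosome 4, and all are annotated as protein coding. In build mm39, as the count tables give it, Tnfsf8 is at chr4:63749545-63779584 on the minus strand, Tnfrsf1b at chr4:144940033-144973440 on the minus strand, Tnfrsf9 at chr4:150999019-151030559 on the plus strand and Tnfrsf25 at chr4:152200391-152204576 on the plus strand. Tnfrsf4 at chr4:156098300-156101069 and Tnfrsf18 at chr4:156110621-156113352 are close neighbours on the plus strand. Cd27 is at chr6:125209585-125213973 and Tnfsf11 at chr14:78514885-78545483, both on the minus strand. Of the exon bases of Tnfrsf18, 27.2% overlap an antisense gene, Gm16008, on the other strand, and the library notes allow a preparation that does not keep the strand. Gm16008 itself had 3 to 20 counts per library, against at least 960 for Tnfrsf18.

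In Peyer's patch, 1 of the 8 genes passed the test between ZsGreen+ and ZsGreen- cells, Tnfrsf25. By the same rule 0.437% of the 14418 genes tested passed in either direction and 0.284% were higher in ZsGreen+ cells. Because the 8 genes and the lists were chosen with earlier results known, counts set beside such shares are descriptions, here and below. Tnfrsf25 encodes death receptor 3 (DR3), a receptor with a death domain that binds the ligand TL1A and costimulates T cells. It had 35.8 and 56.6 CPM in Peyer's patch ZsGreen+ cells, against 18.7 and 24.0 CPM in Peyer's patch ZsGreen- cells. The groups did not overlap, and ZsGreen+ was higher in both experiments. The log2 fold change was 1.08 ± 0.15 (SE, n = 2 libraries per group; adjusted p by edgeR's quasi-likelihood test = 0.00864), and Tnfrsf25 ranked 15 among all genes by p. The call did not hold without either of the ZsGreen- libraries of Peyer's patch, where the adjusted p by edgeR reached 0.131. In a bulk sample, fewer cells that express a gene and less of its RNA per cell cannot be told apart, here and below.

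The other 7 genes did not pass in Peyer's patch. Cd27, the receptor for CD70 that supports T cell survival, came nearest: it had 184 and 470 CPM in ZsGreen+ cells and 254 and 694 CPM in ZsGreen- cells of Peyer's patch. ZsGreen+ was the lower of the pair in both experiments, with a log2 fold change of -0.52 ± 0.17 (adjusted p by edgeR = 0.394, unadjusted p = 0.0112). Tnfsf8, the ligand of CD30, had 568 and 461 CPM in ZsGreen+ cells, against 346 and 354 CPM in ZsGreen- cells. Its groups did not overlap, and its log2 fold change was 0.55 ± 0.26 (adjusted p by edgeR = 0.652). For Tnfsf11, Tnfrsf9, Tnfrsf18, Tnfrsf1b and Tnfrsf4 the log2 fold changes lay between -0.03 and 0.33, with SEs of 0.13 to 0.24. Tnfrsf4 had 49.5 and 240.1 CPM in ZsGreen+ cells, against 44.9 and 163 CPM in ZsGreen- cells, and Tnfrsf18 had 59.4 and 262 CPM in ZsGreen+ cells, against 65.5 and 247 CPM in ZsGreen- cells. For Tnfrsf4 and Tnfrsf18 the groups overlapped, and the level was higher in experiment 2 in both groups.

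In spleen, 4 of the 8 genes passed the test: Tnfrsf25, Tnfrsf9 and Tnfsf11 were higher and Cd27 was lower in ZsGreen+ cells. By the same rule 8.62% of all genes tested passed, 4.53% higher and 4.09% lower. Tnfrsf25 had 151 and 251 CPM in spleen ZsGreen+ cells, against 39.6 and 51.7 CPM in spleen ZsGreen- cells. The lower ZsGreen+ value was well above the higher ZsGreen- value. The difference was 4.3-fold, a log2 fold change of 2.10 ± 0.14 (adjusted p by edgeR = 1.05e-05), and Tnfrsf25 ranked 9 among all genes by p.

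Cd27 showed the opposite direction in spleen. It had 67.0 and 117 CPM in ZsGreen+ cells and 210 and 534 CPM in ZsGreen- cells of spleen, so the groups did not overlap. Its level was 3.74-fold lower than in ZsGreen- cells, with a log2 fold change of -1.91 ± 0.18 (adjusted p by edgeR = 8.96e-05). Both the Tnfrsf25 and the Cd27 call held with each of the 8 libraries left out in turn, also without the ZsGreen- library that had no Y-linked counts.

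Tnfsf11 encodes RANKL, the ligand of RANK, which drives osteoclast formation and lymph node development and is also made by T cells. It had 211.5 and 333.5 CPM in spleen ZsGreen+ cells and 130 and 169 CPM in spleen ZsGreen- cells. The groups did not overlap and the log2 fold change was 0.85 ± 0.15 (adjusted p by edgeR = 0.00567). In Peyer's patch it had 131 and 142 CPM in ZsGreen+ cells, against 129 and 148 CPM in ZsGreen- cells, values that overlapped and were close to those of spleen ZsGreen- cells. The spleen call was lost without the ZsGreen+ library of experiment 2 (adjusted p by edgeR = 0.093).

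Tnfrsf9 encodes 4-1BB (CD137), a costimulatory receptor that appears on T cells after activation. It had 74.8 and 189 CPM in spleen ZsGreen+ cells, against 52.7 and 126 CPM in spleen ZsGreen- cells. Pooled over experiments the groups overlapped, whereas within each experiment ZsGreen+ was higher. The log2 fold change of 0.54 ± 0.12 was the smallest of the 4 called genes (adjusted p by edgeR = 0.0179), and the call was lost when any 1 of the 4 spleen libraries was left out, with an adjusted p by edgeR of up to 0.193.

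The remaining 4 genes did not pass in spleen. Tnfrsf1b, which encodes TNF receptor 2, had 161 and 115 CPM in spleen ZsGreen+ cells and 136 and 84.2 CPM in spleen ZsGreen- cells (log2 fold change 0.36 ± 0.19, adjusted p by edgeR = 0.302). Tnfrsf4, which encodes the costimulatory receptor OX40, had 43.5 and 308.5 CPM in ZsGreen+ cells, against 35.2 and 265 CPM in ZsGreen- cells (0.26 ± 0.24, adjusted p by edgeR = 0.604). The experiments differed far more than the sorts for this gene. Tnfrsf18 encodes GITR, a costimulatory receptor that is high on regulatory T cells. It had 55.7 and 217 CPM in ZsGreen+ cells, against 51.3 and 309 CPM in ZsGreen- cells, and Tnfsf8 had 543 and 334 CPM in ZsGreen+ cells, against 319 and 473 CPM in ZsGreen- cells. For both of these the sign of the difference was opposite in the 2 experiments, with log2 differences of 0.12 and -0.51 for Tnfrsf18 and of 0.77 and -0.50 for Tnfsf8.

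**Figure D2:**
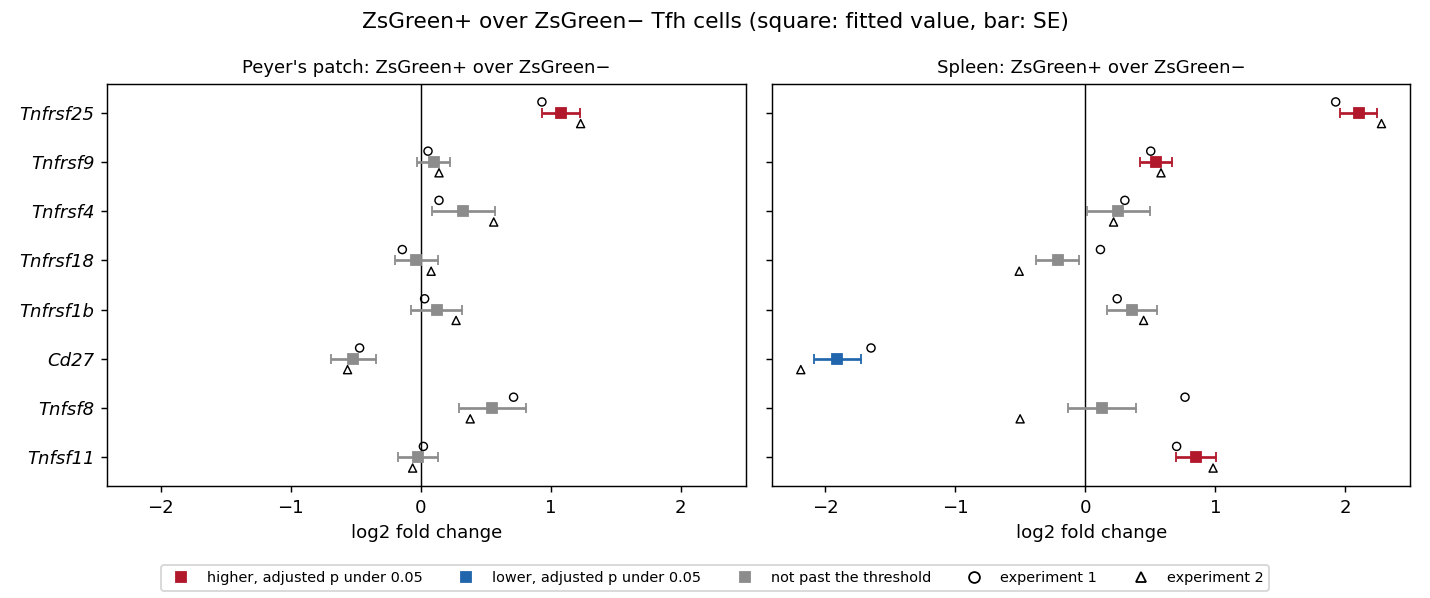
Log2 fold change of ZsGreen+ over ZsGreen- cells in Peyer's patch (left) and spleen (right) for the 8 genes; squares are fitted values with SE bars, circles and triangles the differences within experiments 1 and 2. Tnfrsf25 is past the threshold in both tissues, at 1.08 and 2.10, while Cd27 lies at -0.52 in Peyer's patch and at -1.91 in spleen.

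Markers of other cell states also differed between the sorts. Of 7 regulatory T cell (Treg) and follicular regulatory markers, 2 were lower in ZsGreen+ cells of Peyer's patch, against 0.153% of all genes tested. In spleen 5 were lower and 1 higher, against 4.09% and 4.53%. Foxp3, which defines Treg cells, had 12.1 and 3.17 CPM in spleen ZsGreen+ cells, against 34.2 and 18.1 CPM in spleen ZsGreen- cells (log2 fold change -1.90 ± 0.30, adjusted p by edgeR = 0.00292). The 7 markers summed to 335 to 927 CPM in spleen ZsGreen+ cells and 561 to 653 CPM in spleen ZsGreen- cells, and to 349 to 582 CPM in ZsGreen+ cells and 340 to 367 CPM in ZsGreen- cells of Peyer's patch. Ctla4 and Ikzf2 had the highest means of the 7 in each group, so the sums follow them more than Foxp3. In spleen ZsGreen+ cells the means were 469 ± 508 (SD) CPM for Ctla4, 105 CPM for Ikzf2 and 7.63 CPM for Foxp3. Il2ra, which encodes CD25, for which the sort took negative cells, was the 1 that was higher in spleen, with 20.7 and 13.6 CPM in ZsGreen+ cells and 4.97 and 3.22 CPM in ZsGreen- cells; without the ZsGreen+ library of experiment 1 or the ZsGreen- library of experiment 2 it was not called (adjusted p by edgeR up to 0.131). Lrrc32, a Treg surface protein, was at 0 in the ZsGreen+ libraries of experiment 1.

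Of 9 markers of Tfh and CD4 T cells, 3 were lower in spleen ZsGreen+ cells (Cd3e, Cxcr5 and Sh2d1a) and none was higher. The shares of all genes tested were 4.09% lower and 4.53% higher. DESeq2 also called Bcl6 and Pdcd1 lower there. By edgeR their log2 fold changes were -0.92 ± 0.27 and -0.88 ± 0.33 (adjusted p by edgeR = 0.0921 and 0.16). Cxcr5 had 124 and 105 CPM in spleen ZsGreen+ cells, against 351 and 390 CPM in spleen ZsGreen- cells (log2 fold change -1.70 ± 0.17, adjusted p by edgeR = 0.000127). The 9 markers summed to 4717 to 19370 CPM in ZsGreen+ cells and 4328 to 26040 CPM in ZsGreen- cells of spleen. Trbc2 had by far the highest mean of the 9, with 8917 ± 9819 (SD) and 10260 ± 12800 CPM in these groups. The sums therefore follow Trbc2 more than Cxcr5, whose means were 114 and 370 CPM. None passed in Peyer's patch by edgeR's quasi-likelihood test, nor at an unadjusted p under 0.05.

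Markers of B cells were low: 8 of them summed to 5.23 to 5.38 CPM in ZsGreen+ cells and 18.2 to 37.4 CPM in ZsGreen- cells of spleen, and to 8.63 to 74.4 CPM in ZsGreen+ cells and 18.1 to 85.2 CPM in ZsGreen- cells of Peyer's patch. Cd22 made up most of the spleen ZsGreen- sum and was the 1 B cell marker that passed in either tissue, lower in ZsGreen+ cells. The markers of γδ T cells and innate lymphoid cells that were in both tables summed to 18.6 to 19.97 CPM in ZsGreen+ cells and 18.6 to 92.4 CPM in ZsGreen- cells of spleen, where Kit was higher and Trdc lower in ZsGreen+ cells. In Peyer's patch they summed to 22.4 to 48.6 CPM in ZsGreen+ cells and 31.1 to 31.7 CPM in ZsGreen- cells. Kit passed there too, higher in ZsGreen+ cells (log2 fold change 1.41 ± 0.23, adjusted p by edgeR = 0.0203). The rest of this list did not pass there by edgeR: Trdc had -2.32 ± 0.50, Sox13 -3.07 ± 1.26 and Trgv2 0.69 ± 0.94. DESeq2 called Trdc lower in ZsGreen+ cells of Peyer's patch. Of 10 genes induced by T cell receptor signals, none passed between the sorts in either tissue by edgeR's quasi-likelihood test, and 1 in each tissue had an unadjusted p under 0.05. DESeq2 called 1 of them, Egr3, higher in ZsGreen+ cells of spleen. By edgeR its log2 fold change there was 0.95 ± 0.28 (adjusted p by edgeR = 0.0925). Whether the Treg, Tfh, B cell or γδ T cell markers have a part in the differences of Tnfrsf25, Cd27, Tnfsf11 and Tnfrsf9 was not tested.

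The tissues were compared by the difference of the sort contrasts, Peyer's patch minus spleen. None of the 8 genes passed that test by edgeR, where 0.0971% of all genes tested did, 0.0277% with a positive and 0.0694% with a negative difference, and 4 of the 8 were under 0.05 without adjustment, as were 8.48% of all genes. For Cd27 the difference was 1.39 ± 0.25 on the log2 scale (adjusted p by edgeR = 0.0619), for Tnfrsf25 it was -1.02 ± 0.20 (adjusted p by edgeR = 0.0991), for Tnfsf11 -0.87 ± 0.22 (adjusted p by edgeR = 0.184) and for Tnfrsf9 -0.44 ± 0.18 (adjusted p by edgeR = 0.498). Each of these 4 differences had the same sign in both experiments. DESeq2 called 3 of them, Cd27, Tnfrsf25 and Tnfsf11. At adjusted p 0.05 the edgeR test thus does not separate the sort differences of the tissues for any of the 8.

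Setting Peyer's patch over spleen within each sort uses the same 8 libraries again. In ZsGreen+ cells 5 of the 8 genes differed between the tissues, against 12.7% of all genes tested. Tnfrsf25, Tnfrsf9, Tnfrsf1b and Tnfsf11 were lower in Peyer's patch, where 7.17% of all genes were lower, and Cd27 was higher, where 5.51% were higher. Tnfrsf25 had 35.8 and 56.6 CPM in Peyer's patch ZsGreen+ cells, against 151 and 251 CPM in spleen ZsGreen+ cells (log2 fold change -2.12 ± 0.14, adjusted p by edgeR = 9.57e-06). For Tnfrsf9 the values were 23.9 and 62.6 CPM in Peyer's patch and 74.8 and 189 CPM in spleen (-1.62 ± 0.13, adjusted p by edgeR = 2.27e-05). Both spleen libraries of each gene were above both Peyer's patch libraries.

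Tnfrsf1b, for TNF receptor 2, passed between the tissues in both sorts and between the sorts in neither tissue. It had 59.6 and 27.4 CPM in Peyer's patch ZsGreen+ cells and 161 and 115 CPM in spleen ZsGreen+ cells (log2 fold change -1.75 ± 0.20, adjusted p by edgeR = 0.000267). In ZsGreen- cells it had 58.4 and 22.7 CPM in Peyer's patch, against 136 and 84.2 CPM in spleen (-1.51 ± 0.20, adjusted p by edgeR = 0.00136). Every spleen library was above every Peyer's patch library. Cd27 had 184 and 470 CPM in Peyer's patch ZsGreen+ cells, against 67.0 and 117 CPM in spleen ZsGreen+ cells (1.72 ± 0.18, adjusted p by edgeR = 9.99e-05). In ZsGreen- cells its tissue difference was 0.33 ± 0.17 (adjusted p by edgeR = 0.356).

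In ZsGreen- cells 3 of the 8 genes differed between the tissues, all lower in Peyer's patch, against 5.49% of all genes tested in either direction and 3.68% that were lower and 1.82% that were higher. They were Tnfrsf1b, Tnfrsf9 (log2 fold change -1.18 ± 0.13, adjusted p by edgeR = 0.00026) and Tnfrsf25 (-1.09 ± 0.15, adjusted p by edgeR = 0.0011). Tnfrsf9 had 23.0 and 56.7 CPM in Peyer's patch ZsGreen- cells, against 52.7 and 126 CPM in spleen ZsGreen- cells, and Tnfrsf25 had 18.7 and 24.0 CPM in Peyer's patch, against 39.6 and 51.7 CPM in spleen. Tnfsf11 was lower in Peyer's patch in ZsGreen+ cells (-0.96 ± 0.15, adjusted p by edgeR = 0.00155), while its tissue difference in ZsGreen- cells was -0.09 ± 0.15. Tnfrsf4, Tnfrsf18 and Tnfsf8 did not pass in either sort, with log2 fold changes between -0.18 and 0.24. The tissue calls of the members held with each library left out in turn.

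**Figure D3:**
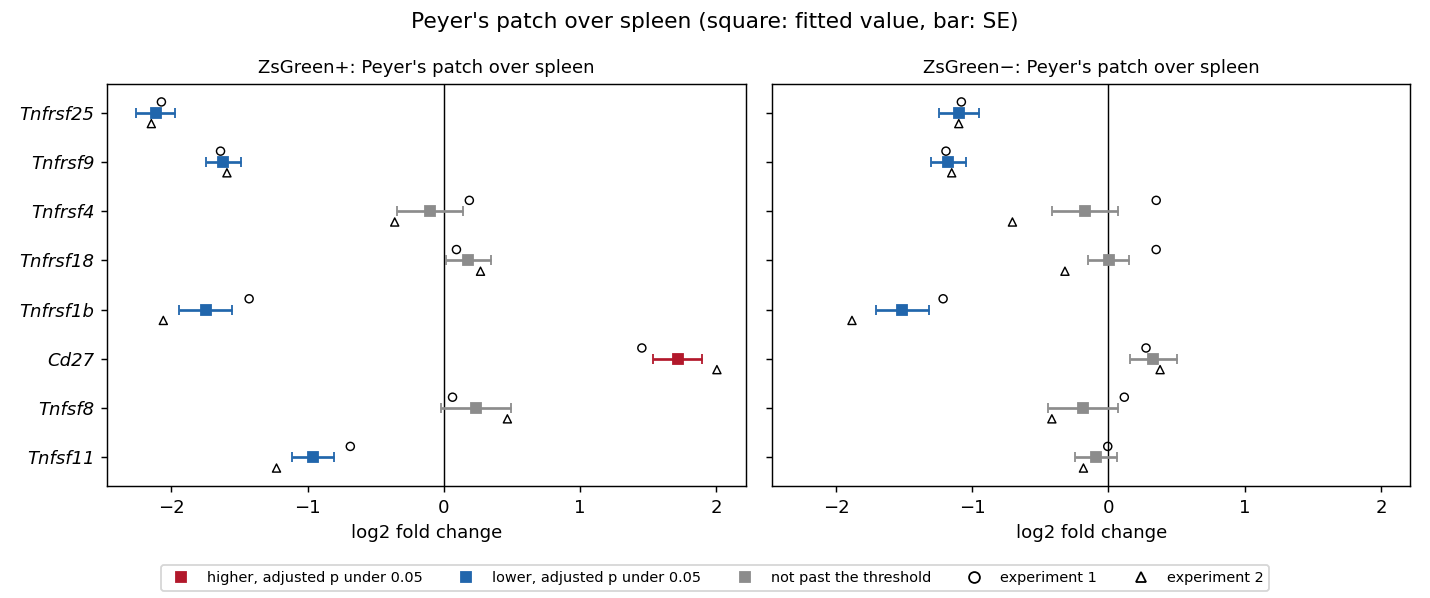
Log2 fold change of Peyer's patch over spleen in ZsGreen+ (left) and ZsGreen- (right) cells for the 8 genes; squares are fitted values with SE bars, circles and triangles the differences within experiments 1 and 2. Tnfrsf25, Tnfrsf9 and Tnfrsf1b lie to the left of 0 in both sorts, and Cd27 is past the threshold to the right, at 1.72, in ZsGreen+ cells.

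Marker lists were also read between the tissues. The 10 genes induced by T cell receptor signals summed to 848 to 1123 CPM in ZsGreen+ cells of Peyer's patch and 1358 to 4465 CPM in those of spleen, and to 802 to 1399 CPM in ZsGreen- cells of Peyer's patch and 1011 to 5802 CPM in those of spleen. The sums of the tissues did not overlap in ZsGreen+ cells and overlapped in ZsGreen- cells. Of the 10, 2 passed as lower in Peyer's patch in ZsGreen+ cells (20%, against 7.17% of all genes tested) and 1 in ZsGreen- cells (10%, against 3.68%). None passed as higher, and DESeq2 called 5 and 2 as lower. Of all genes tested, 5.51% were higher in Peyer's patch in ZsGreen+ cells and 1.82% in ZsGreen- cells. Of the 7 Treg and follicular regulatory markers, 3 were lower (Foxp3, Il2ra and Nrp1) and 2 higher (Gpr83 and Ikzf2) in Peyer's patch in ZsGreen+ cells, and 2 were lower (Foxp3 and Nrp1) and none higher in ZsGreen- cells. The log2 fold changes of Foxp3 were -4.22 ± 0.44 in ZsGreen+ cells and -2.88 ± 0.33 in ZsGreen- cells. Of the 9 Tfh and CD4 T cell markers, 4 were higher in Peyer's patch in ZsGreen+ cells (Bcl6, Cxcr5, Icos and Sh2d1a) and 1, Cxcr5, in ZsGreen- cells. Markers of other cells passed as well. In ZsGreen+ cells the B cell markers Pax5 and Cd22, the myeloid markers Cd68 and Lyz2, the NK cell marker Klrb1c and Kit were higher in Peyer's patch, and the myeloid marker Itgam was lower, with 4 and 0 counts in Peyer's patch and 37 and 4 counts in spleen. In ZsGreen- cells Pax5, Klrb1c and Kit were higher in Peyer's patch. Klrd1, another NK cell marker, went the other way. It had -0.54 ± 0.68 in ZsGreen+ and -2.41 ± 0.72 in ZsGreen- cells (adjusted p by edgeR = 0.441 and 0.0811). DESeq2 called Klrd1 lower in ZsGreen- cells. The median log2 fold changes of the CD8 T and NK cell markers were -0.15 in ZsGreen+ and -0.44 in ZsGreen- cells. Those of the γδ T and innate lymphoid cell markers were -1.27 and -0.18. The 8 B cell markers summed in ZsGreen+ cells to 8.63 to 74.4 CPM in Peyer's patch and 5.23 to 5.38 CPM in spleen, and the 7 myeloid and dendritic markers in both tables to 30.5 to 36.9 CPM in Peyer's patch and 8.57 to 13.6 CPM in spleen. The part of any of these in the tissue differences of Tnfrsf25, Tnfrsf9, Tnfrsf1b, Tnfsf11 and Cd27 was not tested.

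Promoter sequence is shown for the 4 genes that passed in spleen, since all 4 passed in the same comparison. The windows below are the 250 bases before a RefSeq transcript start in build GRCm38.p6, written 5′ to 3′ on the gene's strand, with coordinates of that build. Capitals mark matches on either strand to GGG and CC with any 5 bases between them, a form of the NF-κB motif, to AGGTCA, the half-site bound by ROR factors, or to TGANTCA, an AP-1 motif; overlapping matches run together.
Tnfrsf25 upstream window 1, chr4:152115684-152115933, plus strand: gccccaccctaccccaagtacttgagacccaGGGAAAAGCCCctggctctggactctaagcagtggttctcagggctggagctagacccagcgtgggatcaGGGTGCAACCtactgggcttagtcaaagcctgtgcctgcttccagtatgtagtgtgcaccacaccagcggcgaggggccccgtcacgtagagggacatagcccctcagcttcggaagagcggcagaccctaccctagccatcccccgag
Tnfrsf25 upstream window 2, chr4:152116093-152116342, plus strand: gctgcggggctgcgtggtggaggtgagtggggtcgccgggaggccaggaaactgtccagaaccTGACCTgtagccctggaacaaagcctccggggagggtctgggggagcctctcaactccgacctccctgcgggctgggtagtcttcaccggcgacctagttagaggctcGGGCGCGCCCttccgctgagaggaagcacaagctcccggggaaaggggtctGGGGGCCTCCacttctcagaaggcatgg
Tnfrsf9 upstream window 2, chr4:150927749-150927998, plus strand: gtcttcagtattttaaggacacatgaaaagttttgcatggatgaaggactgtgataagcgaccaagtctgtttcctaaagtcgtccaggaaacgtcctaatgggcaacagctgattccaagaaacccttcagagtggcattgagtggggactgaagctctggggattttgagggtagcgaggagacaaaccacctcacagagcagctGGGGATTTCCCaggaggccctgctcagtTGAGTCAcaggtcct
Tnfsf11 upstream window, chr14:78308044-78308293, minus strand: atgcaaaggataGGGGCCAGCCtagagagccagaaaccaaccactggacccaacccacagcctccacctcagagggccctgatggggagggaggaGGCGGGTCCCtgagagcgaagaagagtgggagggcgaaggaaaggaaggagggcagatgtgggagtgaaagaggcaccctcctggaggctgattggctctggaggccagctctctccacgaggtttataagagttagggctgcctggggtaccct
Cd27 upstream window, chr6:125237028-125237277, minus strand: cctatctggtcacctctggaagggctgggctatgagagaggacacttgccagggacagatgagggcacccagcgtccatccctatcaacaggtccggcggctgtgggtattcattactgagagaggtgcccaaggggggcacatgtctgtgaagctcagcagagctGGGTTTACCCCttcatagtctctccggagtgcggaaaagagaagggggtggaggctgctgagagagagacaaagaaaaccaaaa

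The NF-κB letters occurred in each of the 5 windows shown, and not in the other Tnfrsf9 window named below. The bases just after the Cd27 start were not found in a GENCODE M21 transcript of that gene, while those of the other starts were. The match count was 3 in each window of Tnfrsf25, in that of Tnfrsf9 and in that of Cd27, and 2 in that of Tnfsf11, with matches on both strands counted. Of all 32851 such windows 45.8% hold the NF-κB letters, so their presence is common. The half-site occurred in 1 place, on the minus strand of Tnfrsf25 window 2, and 14% of all windows hold it. The AP-1 letters occurred in 1 place, near the 3′ end of Tnfrsf9 window 2, and 6.75% of all windows hold them. Another start of Tnfrsf9, with its window at chr4:150919905-150920154, had no match to any of the 3 motifs. A match is a string of letters and was not tied to binding here.

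The partners that bind the 8 genes were covered unevenly. Tnfsf15, which encodes TL1A, the ligand of Tnfrsf25, had 31 counts over the 8 libraries and was removed by the filter, as were Cd70, the ligand of Cd27, with 17 counts, and Tnfrsf11a, the receptor RANK for Tnfsf11, with 19 counts. Tnfsf18, the ligand of GITR, was listed in 1 of the tables with 2 counts. Tnf and Lta, whose products bind TNF receptor 2, did not pass between the sorts: Tnf had 96.0 and 151 CPM in spleen ZsGreen+ cells and 41.9 and 140 CPM in spleen ZsGreen- cells (log2 fold change 0.62 ± 0.24, adjusted p by edgeR = 0.171). Lta had 12.3 and 31.5 CPM in ZsGreen+ cells, against 10.1 and 31.4 CPM in ZsGreen- cells of spleen. Tnfsf9, which encodes the ligand of 4-1BB, had 9.85 and 30.4 CPM in ZsGreen+ cells and 7.11 and 29.4 CPM in ZsGreen- cells of spleen (0.25 ± 0.21, adjusted p by edgeR = 0.542).

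Of the partners, Tnfsf4 and Tnfrsf8 were lower in spleen ZsGreen+ cells. Tnfsf4, which encodes the ligand of OX40, had 0.373 and 0.686 CPM in spleen ZsGreen+ cells, against 4.17 and 7.20 CPM in spleen ZsGreen- cells, a log2 fold change of -3.41 ± 0.60 (adjusted p by edgeR = 0.00492). These are small counts, 7 and 8 in the ZsGreen+ libraries and 78 and 47 in the ZsGreen- libraries. Tnfrsf8, the receptor CD30 for Tnfsf8, had 1.49 and 0.6 CPM in spleen ZsGreen+ cells and 6.36 and 3.99 CPM in spleen ZsGreen- cells (-2.40 ± 0.47, adjusted p by edgeR = 0.0089). Neither pair of groups overlapped. Without the spleen ZsGreen- library of experiment 2 the adjusted p by edgeR of Tnfsf4 was 0.0527, and without the spleen ZsGreen+ library of experiment 1 that of Tnfrsf8 was 0.153.

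The wider superfamily was read from lists of 28 receptors and 18 ligands. Besides the 8, 38 genes were listed, 29 of these were in both tables and 24 were tested. In Peyer's patch none of the 24 passed between the sorts by edgeR's quasi-likelihood test or by DESeq2. An unadjusted p under 0.05 was found for 3, against 8.13% of all genes tested. In spleen 1 was higher and 4 were lower in ZsGreen+ cells, against 4.53% and 4.09% of all genes tested. The median log2 fold change of the 24 was -0.39, against -0.03 over all genes tested. The higher 1 was Tnfsf14, which encodes LIGHT, a ligand made by activated T cells: it had 91.8 and 37.0 CPM in ZsGreen+ cells, against 57.4 and 22.7 CPM in ZsGreen- cells (0.68 ± 0.15, adjusted p by edgeR = 0.0168). The lower 4 were Tnfsf4, Tnfrsf8, Fas and Tnfrsf14.

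Fas, the death receptor that ends T cell responses, had 23.1 and 75.8 CPM in spleen ZsGreen+ cells and 29.3 and 132 CPM in spleen ZsGreen- cells (log2 fold change -0.57 ± 0.15, adjusted p by edgeR = 0.0346). Tnfrsf14, which encodes HVEM, a receptor for LIGHT and BTLA, had 27.4 and 12.9 CPM in ZsGreen+ cells, against 46.9 and 19.9 CPM in ZsGreen- cells (-0.72 ± 0.15, adjusted p by edgeR = 0.0145). Within each experiment both were lower in ZsGreen+ cells. Leaving out single spleen libraries ended all 3 of these calls. That of Tnfsf14 was lost without any 1 of the 4 (adjusted p by edgeR up to 0.177), that of Fas without any but the ZsGreen+ library of experiment 1 (up to 0.411) and that of Tnfrsf14 without any but the ZsGreen- library of experiment 2 (up to 0.201). None of the 24 passed in the difference of the sort contrasts by edgeR, and Tnfsf14 was the 1 that DESeq2 called. Without adjustment 6 of the 24 were under 0.05, against 8.48% of all genes tested.

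**Figure D4:**
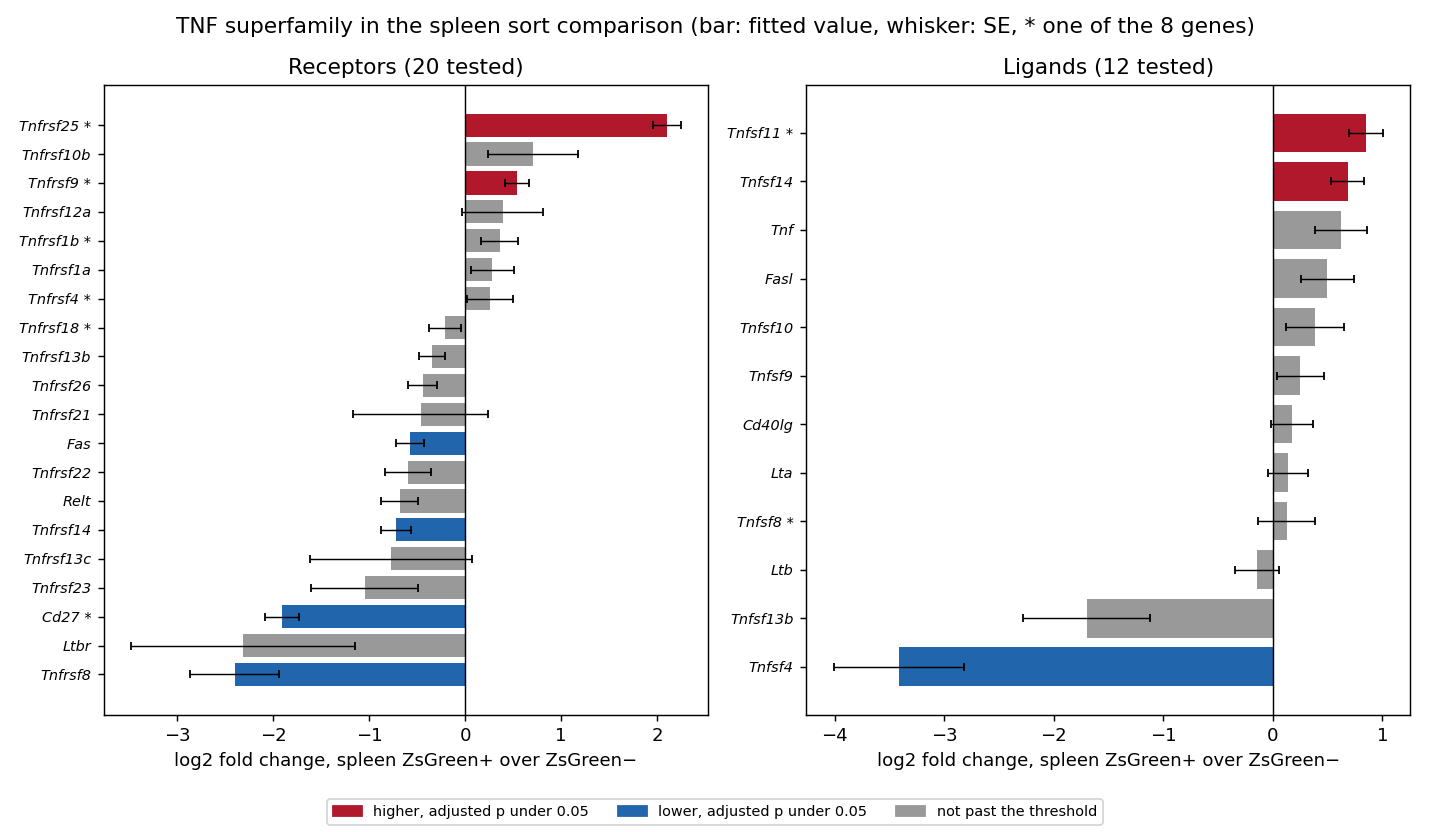
Log2 fold change of ZsGreen+ over ZsGreen- cells in spleen for the 20 receptors and 12 ligands tested, with SE whiskers; asterisks mark the 8 genes. Tnfrsf25 has the highest value of the receptors, at 2.10, and Tnfsf11 that of the ligands, at 0.85, while Tnfsf4 is lowest, at -3.41.

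Between the tissues, 5 of the 24 were higher and 5 lower in Peyer's patch in ZsGreen+ cells, against 5.51% and 7.17% of all genes tested. In ZsGreen- cells 2 were higher (Fas and Tnfrsf14) and 3 lower (Tnf, Tnfsf4 and Tnfsf9), against 1.82% and 3.68%. In ZsGreen+ cells the lower 5 were the ligands Fasl, Tnf, Tnfsf10, Tnfsf14 and Tnfsf9, and the higher 5 were the receptors Fas, Tnfrsf13b, Tnfrsf14, Tnfrsf26 and Tnfrsf8. With the 8 genes included, 6 of 20 receptors were higher and 3 lower, and 6 of 12 ligands were lower, while DESeq2 also called the ligand Tnfsf13b higher. With each library left out in turn the calls of Fas, Fasl, Tnf, Tnfrsf14 and Tnfsf9 held in ZsGreen+ cells. Those of Tnfrsf8 and Tnfsf10 were lost without the spleen library of experiment 1, that of Tnfsf14 without the Peyer's patch library of experiment 1, and those of Tnfrsf13b and Tnfrsf26 without any 1 of 3 of the 4 ZsGreen+ libraries. Tnf, the ligand of TNF receptor 2, had 26.0 and 45.6 CPM in Peyer's patch ZsGreen+ cells and 96.0 and 151 CPM in spleen ZsGreen+ cells (log2 fold change -1.82 ± 0.24, adjusted p by edgeR = 0.00201). Tnfsf9, the ligand of 4-1BB, was also lower in Peyer's patch, with log2 fold changes of -1.18 ± 0.22 in ZsGreen+ cells and -1.55 ± 0.23 in ZsGreen- cells. In ZsGreen- cells the log2 fold change of Tnf was -1.23 ± 0.25 (adjusted p by edgeR = 0.0254), a call that was lost without either ZsGreen- library of Peyer's patch or the ZsGreen+ library of experiment 1 there (up to 0.24). The calls of Fas and Tnfsf4 in ZsGreen- cells were lost without any 1 of the 4 ZsGreen- libraries (up to 0.183 and 0.198), and that of Tnfrsf14 without any but the Peyer's patch ZsGreen+ library of experiment 2 (up to 0.334), while that of Tnfsf9 held. Lta, the other ligand of TNF receptor 2, did not pass, with log2 fold changes of 0.24 ± 0.18 in ZsGreen+ cells and 0.29 ± 0.18 in ZsGreen- cells. The genes named for the tissues here were chosen after their values were seen, other than the partners.

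Genes of the shared signalling route did not pass between the sorts. None of 35 adaptors, NF-κB subunits and regulators and cell death proteins was called by edgeR's quasi-likelihood test in Peyer's patch or in spleen. At an unadjusted p under 0.05 there were 3 in Peyer's patch and 8 in spleen, against 8.13% and 21.9% of all genes tested, and DESeq2 called 1 in each, Nfkb1 and Nfkbib. In ZsGreen+ cells 6 of the 35 (17.1%) were lower in Peyer's patch than in spleen and none was higher, against 7.17% lower and 5.51% higher of all genes tested. They include Traf1, an adaptor of TNF receptor 2 and 4-1BB that NF-κB induces, with 99.0 and 132 CPM in Peyer's patch and 145 and 368 CPM in spleen (log2 fold change -1.04 ± 0.23, adjusted p by edgeR = 0.0164), and Nfkb2, which encodes an NF-κB subunit, with 101 and 45.6 CPM in Peyer's patch, against 149 and 94.1 CPM in spleen (-0.81 ± 0.16, adjusted p by edgeR = 0.0061). Both were named after their values were seen. Without the spleen ZsGreen+ library of experiment 2 none of the 6 passed, and for Nfkb2 the adjusted p by edgeR was then 0.0927. In ZsGreen- cells none of the 35 was called by edgeR between the tissues, against 5.49% of all genes tested. Without adjustment 8 were under 0.05, against 17.7% of all genes. DESeq2 called 3, all lower in Peyer's patch, where it called 357 of all 14418 genes higher and 735 lower.

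Across the 8 libraries the members fell into patterns that can be described by the correlation of their log2 CPM after centring within each experiment; the points share libraries and groups, so these values are descriptions. Tnfrsf25 and Cd27 ran opposite, with Pearson's r of -0.973, as did Tnfsf11 and Cd27 at -0.963, while Tnfrsf25 and Tnfsf11 ran together at 0.908. Tnfrsf9 was most like Tnfrsf1b, at 0.971. Tnfsf8 was near 0 with Tnfrsf9, Tnfrsf1b and Tnfsf11, at -0.0375, -0.0589 and -0.029. Of all 14417 other genes tested, those most like Tnfrsf25 were Nr1d1, a nuclear receptor of the circadian clock, and Sap30, a subunit of a histone deacetylase complex, both at 0.998. For Cd27 they were Zfp365 (0.998) and Rnf167 (0.994), for Tnfrsf9 Tshz1 (0.996) and Sgms1 (0.994), for Tnfrsf1b Tuba1a (0.996) and Dnajb4 (0.995), and for Tnfsf11 Nfyc (0.992) and BC018473 (0.99). The values were lower for the 3 members that passed in no comparison: Gm9403 (0.971) and Ago4 (0.964) for Tnfrsf4, Ikbip (0.958) and Gstp1 (0.951) for Tnfrsf18, and Gm5457 (0.971) and Cstb (0.965) for Tnfsf8.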

How the data were processed

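RNA of sorted Tfh cells was measured in 8 libraries. The raw tables, as deposited, hold expected counts (estimated reads per gene): 20.8% to 31.2% of a library's values were not whole within 0.01. In the normalized tables the authors give a signal equal to the expected count times 1 factor per library, from 0.765 to 1.58. The submitters' processing notes name Partek, STAR, DESeq2 and mm39 without versions. Per the labels, libraries had poly A enrichment or a non-directional low-input preparation, without saying which library had which.

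Expected counts were rounded. edgeR 4.0.16 in R 4.3.3 tested 14418 of the 16735 genes in both tables (filterByExpr, minimum count 10, minimum total 15), with TMM scaling, a mean for each of 4 groups and an experiment term, leaving 3 residual degrees of freedom. Its quasi-likelihood F test (two-sided) gave p-values that were adjusted by Benjamini-Hochberg over all genes tested, with a threshold of 0.05. The SE is derived from the F statistic. Log2 CPM has a prior count of 2. Levels per kilobase use the summed exon length of GENCODE M21. Alternatives were DESeq2 1.42.0, limma 3.58.1 on log2(signal + 1), RLE scaling, other filters, the 4 compared libraries alone, no experiment term and each library left out.

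Libraries of the same experiment were treated as a block, since the labels tie each replicate number to the tables of 1 experiment. As a check, their deviations from the group means correlated with r of 0.825 to 0.867 over the 6 pairs of groups. The correlation was taken across genes, which are not independent replicates. This correlation shows a shared experiment and not that the libraries of a block came from the same animals. The Y-linked counts differed between the sorts within a block. Counts limit precision for genes under about 10 counts per library; the 8 genes had at least 205.

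The 8 genes and the lists were chosen with earlier results of these data known. Named beside the 8 were their binding partners, genes of the superfamily and signalling lists that passed in a sort comparison, the 2 most similar genes for a member, and the sort and Treg markers. Other genes, among them those named for the tissue comparisons, were chosen after their values were seen.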

Additional observations from a re-analysis of the deposited data

How the results depend on the processing

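Of 15 alternatives, 8 left out 1 library each. Without the experiment term no gene was called in any of the 5 comparisons (0 genes and 0 members each, with 111, 398, 79, 568 and 369 genes at an unadjusted p under 0.05 for the sort in Peyer's patch, the sort in spleen, their difference, and the tissues in ZsGreen+ and ZsGreen- cells), so every call rests on this replicate block by experiment. In Peyer's patch the sort called 119 genes with only its 4 libraries and 147 with DESeq2, against 63. The difference of the sorts called 47 genes and 2 members (Cd27 and Tnfrsf25) with no low-count filter, and 144 genes and 3 members with DESeq2, against 14 and 0. With 1 library left out, the genes called were 7 to 88 and the members 0 to 1 for the sort in Peyer's patch, 487 to 1357 and 2 to 4 in spleen, 2 to 93 and 0 to 1 for their difference, 863 to 1965 and 5 to 5 for the tissues in ZsGreen+ cells, and 313 to 893 and 3 to 3 in ZsGreen- cells. The difference for Cd27 was called without either spleen library of experiment 1. Apart from the fit without the experiment term, the members' calls in the sort and tissue comparisons were kept by all other alternatives that kept every library. RLE scaling moved the median of all genes by at most 0.04 on the log2 scale.

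Signs turned only for values that were not called. Tnfrsf18 turned in the Peyer's patch sort with no replicate block (0.037) and in the tissue comparison in ZsGreen- cells with no replicate block (-0.20), no filter (-0.011) and a stricter filter (-0.0015). Tnfsf4 turned between the tissues in ZsGreen+ cells with RLE and with DESeq2 (both -0.013). The cause was not tested. With 1 library left out, log2 fold changes in the Peyer's patch sort spanned -0.052 to 0.76 for Tnfrsf4, -0.19 to 0.12 for Tnfrsf18, -0.14 to 0.47 for Tnfrsf1b, -0.17 to 0.10 for Tnfsf11, -0.10 to 0.12 for Tnfrsf14, -0.10 to 0.15 for Tnf, -0.0023 to 0.17 for Lta, -0.31 to 0.30 for Bcl6 and -0.56 to 1.04 for Il2ra. In spleen they spanned -0.0051 to 0.57 for Tnfrsf4, -0.48 to 0.083 for Tnfrsf18, -0.29 to 0.58 for Tnfsf8 and -0.025 to 0.31 for Lta. For the difference of the sorts they spanned -0.31 to 0.50 for Tnfrsf4, -0.12 to 0.45 for Tnfrsf18, -0.49 to 0.12 for Tnfrsf1b and -0.046 to 0.85 for Tnfsf8. Between the tissues in ZsGreen+ cells they spanned -0.33 to 0.14 for Tnfrsf4, -0.14 to 0.67 for Tnfsf8 and -0.052 to 0.092 for Tnfsf4, and in ZsGreen- cells -0.59 to 0.22 for Tnfrsf4, -0.27 to 0.29 for Tnfrsf18 and -0.58 to 0.29 for Tnfsf8.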
